A study of Mus musculus with 4 samples.

Results

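Transforming growth factor beta (TGF-beta) is made as a latent complex and acts through a small set of proteins, and the transcripts of 10 of them were followed here in 3T3-L1 cells exposed to risperidone. They are the ligands Tgfb1, Tgfb2 and Tgfb3, the receptors Tgfbr1, Tgfbr2 and Tgfbr3, and the latent TGF-beta binding proteins Ltbp1, Ltbp2, Ltbp3 and Ltbp4. All 10 were found by symbol among the 16051 genes of the deposited expression table. They were chosen by family, with their measured differences in count and FPKM between risperidone and control in these same libraries already known, so those differences are given as a description, without a p-value for any of the 10. 3T3-L1 is a mouse fibroblast line of NIH Swiss origin that can form adipocytes in culture. The cells had been carried through an adipogenic protocol of isobutyl-methylxanthine, dexamethasone and insulin and were then kept for 48 h with 100 μM risperidone, an atypical antipsychotic, or with its vehicle DMSO. Each treatment had 2 libraries, and each library combined the RNA of 3 cultures, so that p-values measure only how much such pools differed, which may be technical. The labels call the control untreated, where the study's methods name DMSO, and they mention retina in the extraction text and embryo as the tissue.

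The TGF-beta ligands are secreted as precursors that are cut by furin-like proteases, after which the cleaved prodomain stays wrapped around the mature dimer. A latent binding protein can be joined to the prodomain and anchors the complex in the matrix, from which integrins, proteases or thrombospondin can release the ligand. The freed ligand binds the type II receptor, which recruits and phosphorylates the type I receptor, and Smad2 and Smad3 then carry the signal to the nucleus with Smad4. TGF-beta is known as an inhibitor of adipogenic differentiation and as an inducer of matrix and contractile genes in fibroblasts.

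The libraries held between 15883712 and 16374119 estimated counts. Of 12 adipocyte markers, 4 had a mean of at least 1 FPKM (fragments scaled to transcript length and library size). The defining adipocyte markers Adipoq and Cebpa had at most 5 counts in any library and Plin1 had at most 14. Other adipocyte markers were well expressed, with Lpl at 234 and 250 FPKM, Fabp4 at 130 and 169 FPKM and Pparg at 12.5 and 11.4 FPKM in the DMSO libraries, so the adipocyte list was expressed in part. These last 3 were named after their values were seen. Of 8 fibroblast markers 6 were above the limit, and the list summed to 43663 and 42102 counts with DMSO and 46993 and 46333 with risperidone. Among them Dlk1, a preadipocyte marker, had 873 and 923 against 2406 and 2408 counts, Thy1 had 938 and 934 against 1834 and 1809, and Pdgfrb had 1878 and 1693 against 1125 and 1234, so its members differed in both directions. The 6 of 10 retina markers that were listed summed to between 52 and 65 counts in a library. Risperidone replicate 2 stood apart in kidney transcripts, with 3799 counts over 12 kidney markers against 68 to 107 in the other libraries, and the members are therefore also given without it. Summed adipocyte markers were at 16534 and 17342 counts with DMSO and at 13165 and 13006 with risperidone. Most of this sum is Lpl, at 14999 and 15569 against 12235 and 11967 counts. Fabp4 had 1079 and 1360 against 492 and 586 counts, while the counts of Pparg overlapped (388 and 345 against 384 and 364). The sum of 5 macrophage markers, mostly Cd68, was 54 and 73 against 123 and 132 counts. The part of these cells' transcripts in the differences below was not tested. As these are bulk samples, fewer cells of a type and less RNA per cell cannot be told apart.

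The members differ in what lies before their transcription starts. RefSeq promoter windows on GRCm38.p6, the build named in the submitters' processing notes, were at hand for 8 of the 10 members and gave 12 windows of 250 bases. The windows below belong to the members with the largest differences in each direction (Tgfb2, Tgfbr2 and Ltbp2) and to Tgfb1, the most abundant ligand. They are written 5′ to 3′ on the strand of the gene, and capitals mark a match to a searched motif on either strand. The Tgfb2 window is chr1:186705990-186706239 on the minus strand, that of Tgfb1 chr7:25686752-25687001 on the plus strand, that of Tgfbr2 chr9:116175364-116175613 on the minus strand and that of Ltbp2 chr12:84876492-84876741 on the minus strand.
Tgfb2: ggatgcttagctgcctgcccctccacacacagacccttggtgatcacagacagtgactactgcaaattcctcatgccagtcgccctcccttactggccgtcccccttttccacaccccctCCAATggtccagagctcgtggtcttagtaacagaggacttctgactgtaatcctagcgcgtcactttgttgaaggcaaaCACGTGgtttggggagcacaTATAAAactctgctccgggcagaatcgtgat
Tgfb1: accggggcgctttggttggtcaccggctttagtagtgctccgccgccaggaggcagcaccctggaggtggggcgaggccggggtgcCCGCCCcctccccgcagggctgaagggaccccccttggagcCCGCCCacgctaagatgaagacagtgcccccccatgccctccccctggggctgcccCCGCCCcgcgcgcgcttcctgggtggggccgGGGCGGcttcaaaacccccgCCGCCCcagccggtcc
Tgfbr2: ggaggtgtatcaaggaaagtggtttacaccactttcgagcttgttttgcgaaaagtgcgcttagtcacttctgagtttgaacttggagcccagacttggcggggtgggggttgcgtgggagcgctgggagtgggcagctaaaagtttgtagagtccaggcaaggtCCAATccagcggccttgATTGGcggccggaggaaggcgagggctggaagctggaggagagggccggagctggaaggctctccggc
Ltbp2: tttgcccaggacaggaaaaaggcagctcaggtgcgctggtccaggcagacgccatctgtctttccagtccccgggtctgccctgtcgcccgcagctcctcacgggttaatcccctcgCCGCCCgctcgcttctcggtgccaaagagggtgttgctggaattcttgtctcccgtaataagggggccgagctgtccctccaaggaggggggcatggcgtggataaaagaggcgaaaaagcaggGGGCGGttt
On both strands the TATA box was searched as TATAAA, the E-box as CACGTG, the CCAAT box by those letters, the GC box as GGGCGG, the cAMP response element as TGACGTCA, the AP-1 site as TGAGTCA and the Smad palindrome as GTCTAGAC. No match overlapped another in the 4 windows printed. The Tgfb2 window held a TATA box whose first base lay at -31, counted back from the base before the start, an E-box at -51 and a CCAAT box at -130. No other member window held TATAAA or CACGTG, letters that 12.4% and 6.02% of the 32851 RefSeq windows contain. The Tgfb1 window held 5 GC boxes, at -164, -123, -67, -36 and -16, and 75.2% of its bases were G or C, against 53.6% for Tgfb2 and a median of 52.4% over all windows. A GC box is present in 32.7% and a CCAAT box in 33.9% of all windows. The Tgfbr2 window had CCAAT boxes at -85 and -68, and that of Ltbp2 had GC boxes at -133 and -9. Of the 4 windows printed, only that of Ltbp2 runs into the GENCODE gene span given below, which ends at chr12:84876532. Its GC box at -9 lies inside that span. A cAMP response element occurred in 1 member window, the first of Ltbp1, at -73, and neither the AP-1 site nor the Smad palindrome occurred in any of the 12. RefSeq's span for Tgfb2 reaches beyond the start used here, and matches of this kind say nothing about binding in these cells.

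Among the ligands, Tgfb1 was the main transcript with either treatment, and Tgfb2, the scarcest of the 3, showed the largest difference of all members. Gene spans are those of GENCODE M21 on GRCm38. Tgfb1 (NCBI Gene 21803, chr7:25687002-25705077, plus strand), which encodes the ligand with the broadest expression, stood at 46.2 and 44.7 FPKM in the DMSO libraries and at 58.1 and 54.7 FPKM in the risperidone libraries. Both risperidone values lay above both DMSO values, and the fitted log2 fold change of risperidone over DMSO was 0.41 ± 0.0526 (standard error, SE). Tgfb2 (NCBI Gene 21808, chr1:186622792-186705989, minus strand), a ligand with roles in heart, eye and skeletal development that needs the type III receptor for efficient binding, was at 1.12 and 1.18 FPKM with DMSO and at 3.69 and 3.75 FPKM with risperidone. In counts these values were 87 and 88 against 283 and 281, so the replicates of a treatment were almost equal and the treatments lay far apart. The log2 fold change of Tgfb2 was 1.78 ± 0.130 (SE), and it ranked 67 from the highest among the 10243 genes tested. It was also 1.78 without risperidone replicate 2, the library with kidney transcripts, where that of Tgfb1 was 0.46. Tgfb3 (NCBI Gene 21809, chr12:86056745-86079041, minus strand), which is needed for closure of the palate, was at 12.4 and 12.3 FPKM with DMSO and at 13.8 and 12.2 FPKM with risperidone. Its libraries overlapped between the treatments, and its log2 fold change was 0.17 ± 0.0703 (SE), 0.26 without risperidone replicate 2, 0.07 without risperidone replicate 1 and -0.07 after scaling to transcripts per fixed library total (TPM). That scaling lowered the median of all genes to -0.22, and with it Tgfb1 had 0.17 and Tgfb2 1.24. On log2(FPKM + 1) Tgfb1 had 0.30 and Tgfb2 1.13, a scale on which the added 1 shrinks the difference of a gene as low as Tgfb2.

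**Figure D1:**
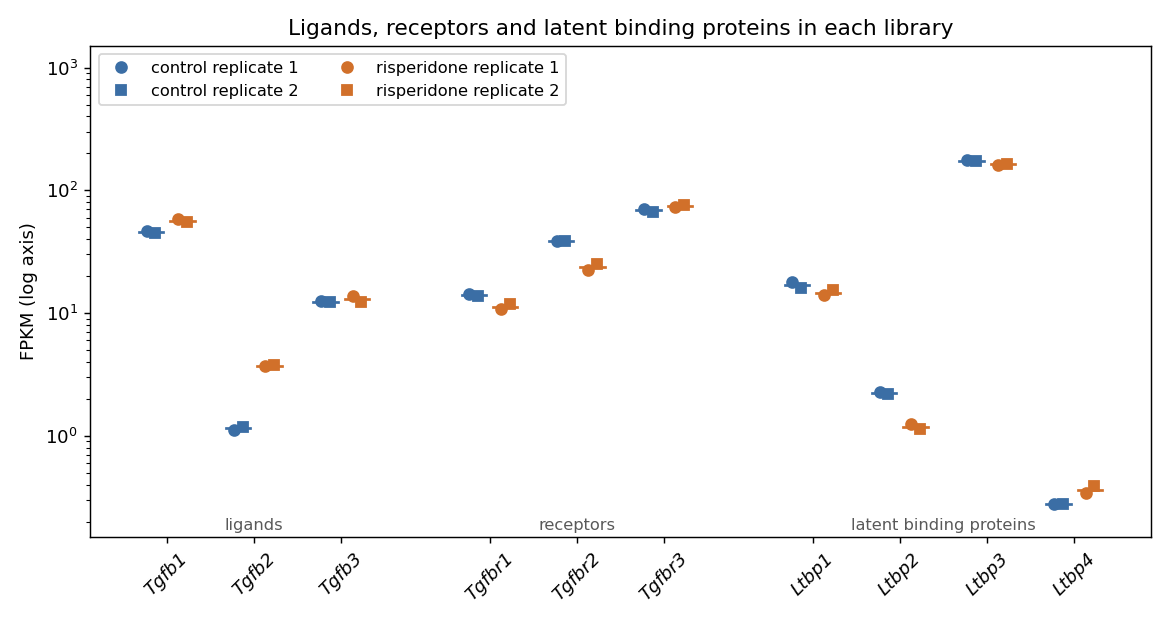
FPKM of the 10 members in each of the 4 libraries, on a log axis, with circles for replicate 1, squares for replicate 2 and a short line for the mean of each treatment. Tgfb2 moves from between 1.12 and 1.18 FPKM to between 3.69 and 3.75 FPKM, Tgfbr2 and Ltbp2 lie lower in both risperidone libraries, and the Tgfb3 libraries overlap.

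Shares within a library do not depend on how libraries are scaled to each other. Tgfb1 made up 77.1% ± 0.363 (SD, n = 2 libraries) of the summed ligand FPKM with DMSO and 77.1% ± 0.425 with risperidone. Tgfb2 went from 1.95% ± 0.108 to 5.09% ± 0.299, and Tgfb3 from 21.0% ± 0.255 to 17.8% ± 0.724. The make-up of the ligand pool thus differed in the minor ligands, with Tgfb1 at 41.2 and 37.9 times the level of Tgfb2 in the DMSO libraries and 15.7 and 14.6 times in the risperidone libraries. Summed over the 3 ligands, the level was 59.0 ± 1.09 FPKM with DMSO and 73.1 ± 3.46 FPKM with risperidone.

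Among the receptors, the transcripts of the signalling pair were lower after risperidone and that of the co-receptor was higher, except with TPM scaling. Tgfbr2 (NCBI Gene 21813, chr9:116084293-116175360, minus strand), the type II receptor kinase that binds the ligand first, was at 38.56 and 38.61 FPKM with DMSO and at 22.43 and 24.98 FPKM with risperidone. The DMSO libraries were nearly identical, both risperidone libraries lay well below them, and the log2 fold change was -0.61 ± 0.0535 (SE). Tgfbr1 (NCBI Gene 21812, chr4:47353222-47414931, plus strand), the type I receptor kinase that phosphorylates Smad2 and Smad3, was at 14.3 and 13.9 FPKM with DMSO and at 10.7 and 11.9 FPKM with risperidone. These groups did not overlap either, at a log2 fold change of -0.23 ± 0.0661 (SE). Tgfbr3 (NCBI Gene 21814, chr5:107106570-107289629, minus strand), also called betaglycan, a co-receptor without a kinase that presents TGF-beta2 to the type II receptor, was at 70.3 and 67.1 FPKM with DMSO and at 73.4 and 75.5 FPKM with risperidone. Its log2 fold change was 0.21 ± 0.0485 (SE), and with TPM scaling it was -0.03, which was 0.20 above the median gene. With the same scaling Tgfbr1 had -0.45 and Tgfbr2 -0.83. Without risperidone replicate 2 the log2 fold change of Tgfbr2 was -0.68, that of Tgfbr1 -0.30 and that of Tgfbr3 0.20.

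The receptor pool held a larger share of the co-receptor. Tgfbr3 made up 56.6% ± 0.683 of the summed receptor FPKM with DMSO and 68.1% ± 1.21 with risperidone (SD, n = 2 libraries), while Tgfbr2 made up 31.8% ± 0.670 and 21.6% ± 0.836. The share of Tgfbr1 was 11.6% ± 0.0123 with DMSO and 10.3% ± 0.370 with risperidone. Per library, the ratio of Tgfbr3 to Tgfbr2 was 1.82 and 1.74 with DMSO and 3.27 and 3.02 with risperidone, without overlap. The ratio of Tgfbr1 to Tgfbr2 was 0.370 and 0.359 with DMSO and 0.477 and 0.475 with risperidone, so within the signalling pair the type II receptor was the one with the larger difference.

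**Figure D2:**
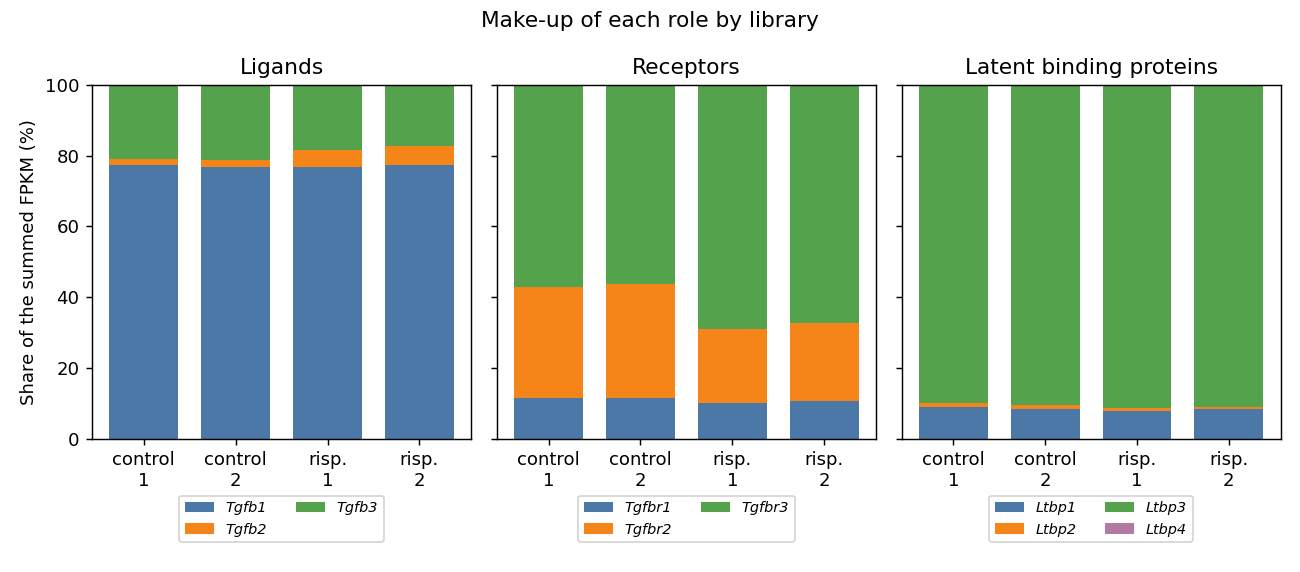
Share of each member in the summed FPKM of its role (percent, stacked bars from 0 to 100%) in the 4 libraries, for ligands, receptors and latent binding proteins. In the risperidone libraries Tgfb2 takes 4.88% and 5.31% of the ligand total, Tgfbr2 takes 21.1% and 22.2% of the receptor total, and Ltbp3 stays near 90% of the latent binding proteins in every library.

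The latent binding proteins were dominated by Ltbp3, whose level was the highest of all 10 members. Ltbp3 (NCBI Gene 16998, chr19:5740904-5758532, plus strand), which binds latent TGF-beta and is needed for normal bone and teeth, was at 177 and 172 FPKM with DMSO and at 161 and 164 FPKM with risperidone. Although these FPKM values did not overlap, the fitted log2 fold change was -0.01 ± 0.0476 (SE). It was -0.25 with TPM scaling, 0.06 with offsets for transcript length and 0.01 without control replicate 1, so its sign depended on the setting. With TPM scaling Ltbp1, described next, had -0.34. Ltbp1 (NCBI Gene 268977, chr17:75005568-75392512, plus strand), the first of the family to be found and the usual partner of the TGF-beta1 prodomain, was at 17.95 and 16.04 FPKM with DMSO and at 14.1 and 15.3 FPKM with risperidone, and its log2 fold change was -0.13 ± 0.0656 (SE). The risperidone values of Ltbp1 lay below both DMSO values, 1 of them by less than the gap between the DMSO libraries. Ltbp2 (NCBI Gene 16997, chr12:84783212-84876532, minus strand), a family member that does not bind latent TGF-beta but associates with fibrillin microfibrils, was at 2.27 and 2.21 FPKM with DMSO and at 1.24 and 1.14 FPKM with risperidone. In counts these were 252 and 235 against 136 and 124, and the log2 fold change of -0.81 ± 0.127 (SE) was the lowest among the members in this fit. With TPM scaling Ltbp2 had -0.80 and Tgfbr2 -0.83, and on log2(FPKM + 1) they had -0.57 and -0.68. Ltbp4 (NCBI Gene 108075, chr7:27305136-27337692, minus strand), which has a role in elastic fibre assembly, had the lowest level of all, with 22 and 21 counts with DMSO and 27 and 30 with risperidone. At 0.28 FPKM in each DMSO library and 0.34 and 0.39 FPKM in the risperidone libraries it did not reach the mean of 1 FPKM asked for, and it did not enter the fit. Without risperidone replicate 2 the log2 fold change of Ltbp1 was -0.18, that of Ltbp2 -0.75 and that of Ltbp3 -0.02. With each library left out in turn, that of Ltbp1 ran from -0.20 to -0.05.

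Within the latent binding proteins Ltbp3 held 90.0% ± 0.472 of the summed FPKM with DMSO and 90.9% ± 0.313 with risperidone (SD, n = 2 libraries). Ltbp2 held 1.15% ± 0.00633 and 0.666% ± 0.0514. The ratio of Ltbp1 to Ltbp2 was 7.91 and 7.26 with DMSO and 11.3 and 13.4 with risperidone, so the minor members parted while the leading one kept its place. Summed FPKM was 194 ± 4.74 with DMSO and 179 ± 3.19 with risperidone for the latent binding proteins, and 121 ± 2.45 and 109 ± 4.10 for the receptors. Unlike the shares, these sums depend on how libraries are scaled to each other. With TMM factors the fitted log2 fold change of Ltbp3, most of the first sum, was -0.01.

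Several of these genes are long, and long genes as a whole lay lower after risperidone. When the tested genes were split by length into 5 bins of equal size, the median log2 fold change was -0.12 in the bin of the longest (4514 bases or more) and 0.12 in that of the shortest. Length here is the effective length that counts and FPKM imply. Ltbp1, at 5560 bases, Tgfbr1, at 5603, Tgfbr2, at 4614, Tgfbr3, at 5921, and Ltbp2, at 6750, all belong to the bin of the longest. Tgfb2, at 4706 bases and with the largest rise, belongs to it too. With offsets that remove the trend with length, the log2 fold change of Ltbp1 was -0.03, that of Tgfbr1 -0.13, that of Tgfbr2 -0.53, that of Ltbp2 -0.70 and that of Tgfbr3 0.31. With these offsets Tgfbr1 was no longer called, and Tgfb3, at 0.19, was called as higher. Tgfb2 had 1.86 with them. The exons of Tgfb2, Tgfb3 and Ltbp2 share 124, 420 and 764 bases with genes on the opposite strand and those of Tgfbr3 share 297 with a gene on the same strand, and these genes have no values here. Whether the counting used strand is not given in the sources used here, and the part of these overlaps in the members' values was not tested.

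**Figure D3:**
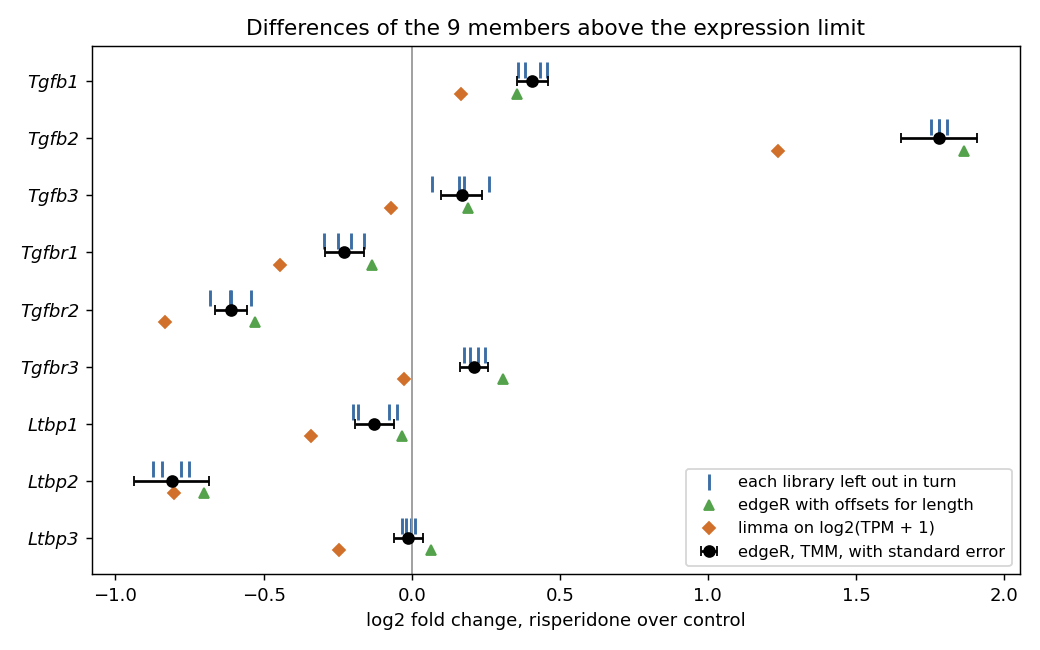
Log2 fold change of risperidone over DMSO for the 9 tested members (mean of 1 FPKM or more), with the standard error of the edgeR fit as bars and, beside it, the value with each library left out, with offsets for length and after scaling to TPM. Tgfb2 (1.78), Tgfb1 (0.41), Tgfbr1 (-0.23), Tgfbr2 (-0.61) and Ltbp2 (-0.81) keep their sign in all of these, whereas Tgfb3 and Tgfbr3 turn negative with TPM scaling and Ltbp3 (-0.01) turns positive with offsets for length.

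In the DMSO libraries the members ranked, from high to low FPKM, as Ltbp3, Tgfbr3, Tgfb1, Tgfbr2, Ltbp1, Tgfbr1, Tgfb3, Ltbp2, Tgfb2 and Ltbp4. No neighbours in this order overlapped over the 2 DMSO libraries, and TPM or either library alone gave the same order. In the risperidone libraries the order was the same except that Tgfb3 (mean 13.01 FPKM) lay above Tgfbr1 (mean 11.3 FPKM) and Tgfb2 (3.72 FPKM) above Ltbp2 (1.19 FPKM). With edgeR's quasi-likelihood test and an adjusted p under 0.05, 3 of the 9 tested members were counted as higher (Tgfb1, Tgfb2 and Tgfbr3) and 3 as lower (Tgfbr1, Tgfbr2 and Ltbp2), against 32.1% and 32.2% of all genes tested. In either direction 64.3% of all genes were called, and 66.7% of the tested members. The FPKM of the treatments did not overlap for 8 of the 9, with 3 higher and 5 lower, where 82.2% of all tested genes did not overlap (32.4% higher and 49.8% lower). A log2 fold change of at least 1 in size was passed by 1 member, Tgfb2, and by 6.52% of all genes. Since the members were selected on this contrast, nothing is read from these counts or from the call of any single member, here or in other paragraphs. Leaving out a library gave between 5 and 8 called members, with Ltbp1 and Tgfb3 added without risperidone replicate 2. Tgfbr1 was no longer called without control replicate 1 (log2 fold change -0.21), nor Tgfbr3 without control replicate 2 (0.18) or with library size, FPKM or TPM scaling. Ltbp1 was called as lower with library size, FPKM and TPM scaling, and Ltbp3 as lower with TPM scaling.

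By the distance between library profiles of log2 CPM (counts scaled to library size) centred over the 4 libraries, the genes most like Tgfb2, among those with a mean of at least 5 FPKM, were Slc25a30, Gprc5a and Tinagl1. Slc25a30 was at 31.9 ± 0.834 FPKM with DMSO and 94.8 ± 0.509 with risperidone (SD, n = 2 libraries), and Tinagl1 went from 46.4 ± 1.74 to 155 ± 6.51 FPKM. The genes most like Ltbp2 were Tfap2a, Ldah and Cyp4f16, with log2 fold changes of -0.82, -0.76 and -0.82. These names rest on 4 libraries and on the scale, since distances on log2(FPKM + 1) gave none of the 6 again (0 shared).

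To set the members beside the rest of the pathway, the genes that carry the signal inside the cell were counted in the same fit. Of 23 such genes 21 were tested, and edgeR's quasi-likelihood test (Benjamini-Hochberg adjusted p under 0.05) called 12 as higher and 3 as lower, 71.4% in all against 64.3% of all genes, with a median log2 fold change of 0.22 where the median of all genes was 0.00. Smad3, which enters the nucleus after phosphorylation by the type I receptor, rose from 15.7 ± 0.707 to 22.3 ± 0.134 FPKM (SD, n = 2 libraries), which is 0.60 ± 0.0558 (SE) on the log2 scale with an adjusted p of 4.47e-06 from edgeR. Tab1, a partner of the kinase Tak1 in the branch without Smads, rose with a log2 fold change of 0.66 and the inhibitory Smad6 with 0.52. Skil, a repressor of Smad complexes, rose with 0.38. Smurf2 (-0.38) and Smurf1 (-0.25), ubiquitin ligases that act on Smads and receptors, fell, as did Trim33 (-0.28), which acts on Smad4 (largest adjusted p = 0.00819 from edgeR, for Smurf1). Smad7, the inhibitory Smad induced by the pathway, had a log2 fold change of -0.40 ± 0.210 (SE) and did not pass (adjusted p = 0.116 from edgeR). With each library left out in turn, the value of Smad7 ran from -0.63 to -0.20. Smad2, at 0.11, did not pass either, and Smad4 rose with 0.26 but had -0.03 with TPM scaling. Smad7, Smad2 and Smad4 were singled out after their values were seen. Scaling to TPM, tested with limma, left 3 higher and 6 lower genes of this list and brought its median to -0.03, where that of all genes was -0.22, and Skil and Smad6 were no longer called.

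Genes that handle latent TGF-beta outside the cell moved in both directions. Of 28 such genes 18 were tested, of which 9 were higher and 5 lower by the same test, 77.8% in all against 64.3% of all genes, with a median of 0.19. With TPM scaling, tested with limma, 4 were higher and 7 lower and the median was -0.05, where that of all genes was -0.22, and with library size alone 6 were higher and 6 lower. Thbs1, or thrombospondin 1, an activator of latent TGF-beta, rose from 40.8 ± 3.63 to 65.1 ± 8.53 FPKM, which is 0.77 ± 0.0822 (SE) on the log2 scale. Cd109, a surface co-receptor known to dampen TGF-beta signalling, rose from 3.23 ± 0.262 to 7.92 ± 0.502 FPKM, which is 1.39 ± 0.0770 (SE) on the log2 scale. Itgb5, a subunit of an integrin that can release the ligand, rose with a log2 fold change of 0.52 and the gelatinase Mmp2 with 0.42. Aspn, or asporin, a small leucine-rich proteoglycan that binds TGF-beta1, fell from 17.6 and 14.5 to 2.05 and 3.43 FPKM, which is -2.46 ± 0.170 (SE) on the log2 scale. Emilin1, which restrains processing of the TGF-beta precursor, fell with -0.61, and Furin, the protease that cuts it, from 64.8 ± 1.80 to 45.7 ± 0.488 FPKM with -0.41. The membrane protease Mmp14 fell with -0.19 (adjusted p = 0.00891, and from 4.76e-05 to 0.0703 over its alternatives, the highest without control replicate 1). Mmp2 was not called after scaling to TPM (adjusted p = 0.0543 from limma, the highest over its alternatives, with a lowest of 2.66e-08). The fibrillin Fbn1, to which latent binding proteins attach, rose with 0.18 but had -0.05 with TPM scaling, and fibronectin, Fn1, had 0.05 without passing, both named after their values were seen.

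Genes commonly used as readouts of TGF-beta in fibroblasts also moved in both directions. Of 28 such genes 24 were tested, 12 were higher and 9 lower, and 87.5% were thus called against 64.3% of all genes, with a median of 0.13. With TPM scaling 10 were higher and 11 lower and this median was -0.05, again beside -0.22 for all genes. Cyr61, a matricellular protein, rose from 17.7 and 17.5 to 77.2 and 70.2 FPKM, which is 2.16 ± 0.0673 (SE) on the log2 scale. Acta2, the smooth muscle actin of myofibroblasts, rose from 108 ± 4.57 to 229 ± 0.127 FPKM and the collagen chain Col1a1 from 374 ± 8.12 to 694 ± 28.5 FPKM, with log2 fold changes of 1.19 and 0.99. On the other side, Ier3, an early response gene, fell from 48.4 ± 0.919 to 18.2 ± 1.20 FPKM and Cdkn1a, the cell cycle inhibitor p21, from 65.2 ± 3.89 to 28.9 ± 0.269 FPKM, with log2 fold changes of -1.31 and -1.07. Col3a1, the chain of type III collagen, fell from 107 ± 2.98 to 51.5 ± 3.12 FPKM (-0.96), the opposite direction to Col1a1, and the repressor Snai1 fell with -0.42. All 7 differences exceeded the replicate spread, with a largest adjusted p of 0.00119, for Snai1, from edgeR. Many of these genes also respond to other signals.

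**Figure D4:**
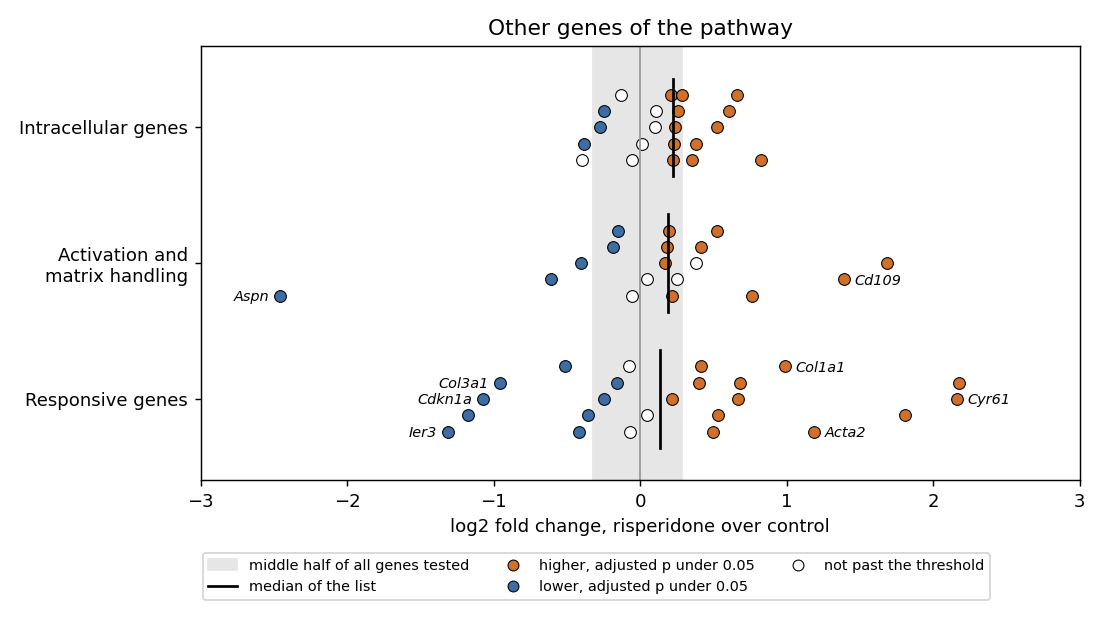
Log2 fold change of risperidone over DMSO for the tested genes of the intracellular list (21 genes), the activation and matrix list (18) and the list of TGF-beta responsive genes (24), 1 point per gene, coloured where the adjusted p from edgeR was under 0.05, with a line for each list's median (0.22, 0.19 and 0.13) and a grey band between the quartiles of all genes tested (-0.32 and 0.28). Among the named responsive genes Ier3 lies at -1.31 and Cyr61 at 2.16, and the lowest point of the plot is Aspn at -2.46.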

How the data were processed

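mRNA sequencing was available for 4 libraries of 3T3-L1 cells that the study describes as differentiated, 2 with DMSO and 2 with risperidone, grouped by the treatment in the sample labels. The authors removed adaptor, poly-N and low-quality reads and mapped the rest. The submitters' processing notes name Bowtie2, RSEM, DESeq2 and the build GRCm38.p6. Versions, annotation and strand setting are not given in the sources used here. The estimated counts (expected counts) are as deposited by the authors, not normalized, and 91.2% to 91.7% of the values of a library, zeros included, are exactly whole at the 2 decimals deposited. FPKM and TPM values were computed by the authors and are as deposited. The authors' means per treatment were not used.

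Estimated counts were rounded, and the 10243 genes whose mean over the libraries reached 1 FPKM were fitted in R 4.3.3 with edgeR 4.0.16 (TMM, quasi-likelihood F-test, two-sided, Benjamini-Hochberg adjustment over all genes tested, threshold 0.05). TMM factors were 1.03, 1.03, 0.963 and 0.973. SE is the size of the log2 fold change over the root of its F. The limit for a gene at 0 was 3 counts (0.183 to 0.189 CPM), which covers counting error only. Replicates differed by more than counting error: over genes with at least 20 counts the median chi-square was 0.683 with DMSO and 1.14 with risperidone, where counting error gives 0.455. The members and the gene lists were chosen with earlier results of these data known. Named genes are the 10 members, up to 4 called genes per list and direction with the largest change and a mean of at least 5 FPKM, and the 3 genes closest in profile to Tgfb2 and to the member with the lowest log2 fold change. Results for some genes are not reported here. Alternatives used RLE factors, library size, DESeq2 1.42.0, limma 3.58.1 on log2(FPKM + 1), log2(FPKM + 0.1) and log2(TPM + 1), other filters, a replicate block, offsets for length, a log2 fold change of at least 1 and each library left out. The edgeR fits with TMM, RLE, library size, block or length offsets, DESeq2 and a limma fit were tested on simulated data first. Other filters, the other limma scales and fits with a library left out were not simulated. The simulation changed a far smaller share of genes than the 64.3% called here. Promoter sequences are from RefSeq and gene spans from GENCODE M21, both on GRCm38. Tables and figures were made with Python 3.11.15, pandas 2.3.3 and matplotlib 3.10.9.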

Additional observations from a re-analysis of the deposited data

How the results depend on the processing

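Of the 124 alternative values for the 9 tested members, 82 lay within the replicate SD of log2 CPM from the main value. A further 41 lay beyond that SD. The remaining 1 turned a called direction, which was Tgfbr3 at -0.027 with limma on log2(TPM + 1). A log2 fold change of 1 or more in size, asked for beside the adjusted p, left 668 of all genes, 1 member (Tgfb2), 0 intracellular genes (15 without this requirement, by edgeR), 3 activation genes and 7 responsive genes. With limma on log2(TPM + 1), 9 intracellular genes were called. The calls over all genes split into 3287 higher and 3303 lower with TMM, 2500 and 4092 with library size alone, 2420 and 3975 with limma on log2(FPKM + 1), 2423 and 3971 on log2(FPKM + 0.1), and 1536 and 5292 on log2(TPM + 1). For the genes named as most like Tgfb2 or Ltbp2, 0 of 6 were shared under the other distance. Of 322 alternative values for the 23 named list genes, 318 kept direction and call, 4 lost the call and 0 reversed. With each library left out, between 5391 and 6660 of all genes, 5 and 8 members, 14 and 17 intracellular, 10 and 16 activation and 18 and 21 responsive genes were called, 17, 13 and 21 of these lists without risperidone replicate 2, the lone library of a treatment being taken to vary like the other treatment.

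Replicate numbers are shared by the treatments, but deviations of same-numbered libraries from their group mean correlated at -0.06 over 10243 genes, so the numbers were not taken as pairs. With the replicate block 6613 genes were called in place of 6590, and 7 members in place of 6, since Tgfb3 (0.17) was called as higher. Ltbp4, with 21 to 30 counts per library, missed the FPKM limit and had 0.50 ± 0.281 (SE) on the log2 scale without a filter.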
